A study of Mus musculus with 6 samples.

Results

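The extracellular part of the Wnt pathway was followed in bulk RNA-seq of mouse liver: the Wnt ligands, their Frizzled receptors, the co-receptors Lrp5 and Lrp6, the R-spondins with their receptor Lgr4, and the secreted antagonists of the Sfrp, Dkk, Wif1 and Frzb kind. Members were all rows of the deposited count table whose symbol named such a gene, which gave 38 of the 16603 genes: 15 ligands, 9 Frizzled genes, 3 co-receptor or R-spondin receptor genes, 2 R-spondins and 9 antagonists. The comparison was between 3 liver libraries labelled Mdr2 knockout and 3 labelled wild-type. Mdr2, gene symbol Abcb4, is the hepatocyte transporter that delivers phosphatidylcholine to bile, and its loss in mice injures the bile ducts over time and leads to scarring. The labels give tissue and genotype, and no age, sex, strain, allele or treatment, and they do not say whether each library is a separate animal. The p-values therefore measure only the spread between these libraries, which may be technical. The series text places the comparison in a study of hepatic progenitor cells and the bile duct lineage.

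Wnt ligands are lipid-modified secreted proteins that bind a Frizzled receptor together with Lrp5 or Lrp6 and so stabilise beta-catenin, or act through Frizzled and the receptors Ror and Ryk without it. R-spondins bind Lgr receptors and keep Frizzled proteins at the cell surface by holding off the ubiquitin ligases Znrf3 and Rnf43. Sfrp proteins, Frzb and Wif1 bind Wnt ligands outside the cell, and Dkk proteins act on Lrp5 and Lrp6. In mouse liver the pathway is best known for setting the gene programme of hepatocytes around the central vein, with endothelial Wnt2, Wnt9b and Rspo3 as its main ligands there.

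The libraries held 17100393 to 18124467 counts each. Columns of the table carry the letters M and N, of which M begins the knockout titles and N was read as wild-type by elimination, so every direction rests on that reading. Abcb4 itself stood at 499, 513 and 434 CPM (counts scaled to a common library size) in the libraries labelled Mdr2 knockout, against 330, 369 and 273 CPM in those labelled wild-type (log2 fold change 0.57, SE 0.12, edgeR adjusted p = 0.00389). The targeted gene was thus higher, not lower, which goes against its label, and the labels give no structure for the allele. Groups are therefore named by their labels throughout. Liver identity was plain in the hepatocyte genes Alb, Ttr and Apoa1, which held 951071 to 1407781, 51361 to 81815 and 84989 to 101521 counts per library.

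Of the 38 members, 23 passed the low-count filter and were tested with all other genes. Of these, 11 were higher and 1 was lower in the libraries labelled Mdr2 knockout at an edgeR adjusted p under 0.05, and 11 did not pass. That is 47.8% and 4.35% of the tested members, against 20.9% and 16.3% of all 12612 tested genes (37.1% in either direction). In 12 tested members every library labelled Mdr2 knockout lay above every library labelled wild-type, and in 1 (Lrp6) below; over all tested genes 27.6% lay above and 23.7% below in this way, 51.3% in either direction. The filter asks for 0.568 CPM, equal to 10 counts at the median library size, in at least 3 libraries. Of the 11 higher members, 6 reached that level in all 3 libraries labelled knockout but not in all 3 labelled wild-type (Wnt7b, Wnt10a, Fzd3, Sfrp1, Frzb and Dkk2). Those 6 entered the test through the group in which they were high, so the share of higher members is a description and supports nothing further. Each of the 11 was called higher under every scaling, tool, filter and set of 5 libraries in which it was tested, and in each the groups did not overlap in CPM. The higher members were the ligands Wnt4, Wnt5a, Wnt5b, Wnt7b and Wnt10a, the receptors Fzd1 and Fzd3, and the secreted proteins Sfrp1, Frzb, Dkk2 and Dkk3.

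**Figure D1:**
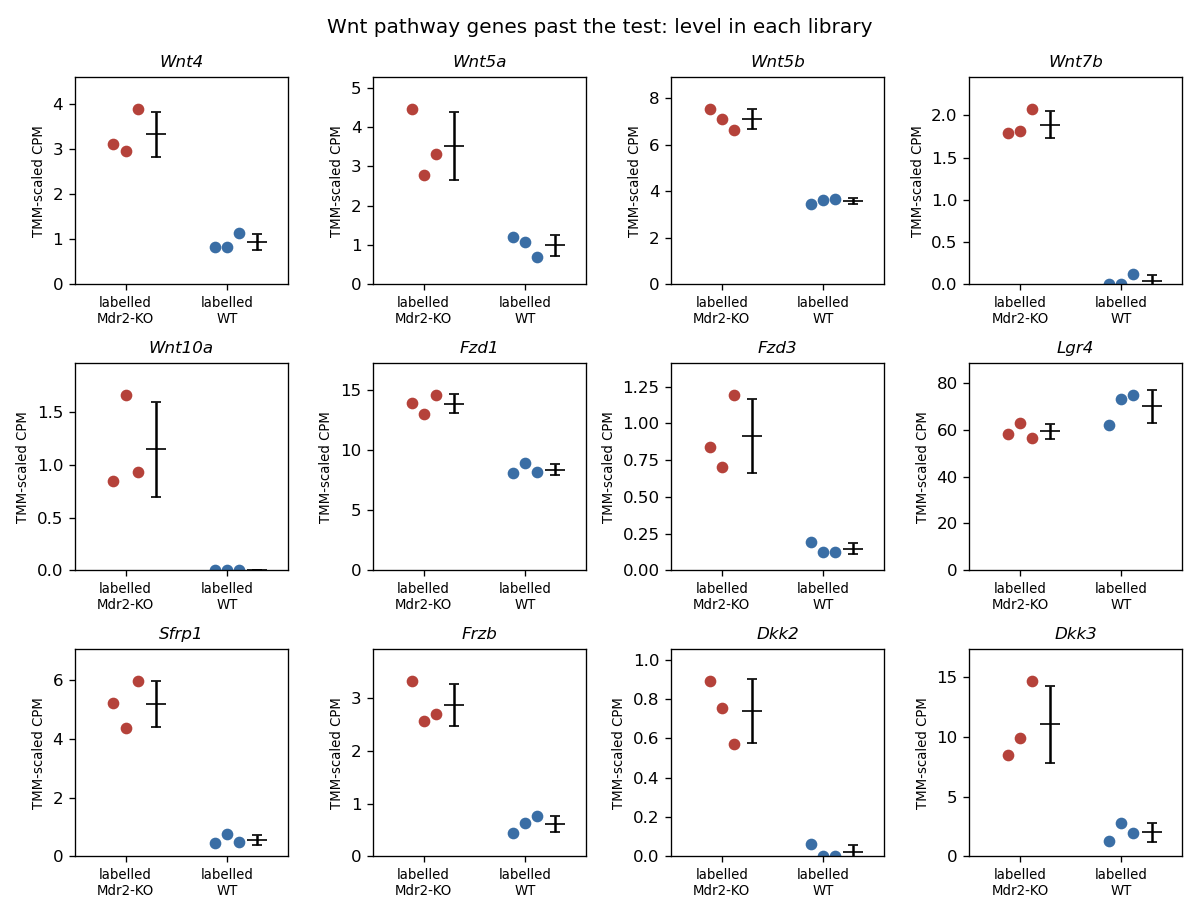
Level in TMM-scaled CPM (vertical axis, from 0) of the 12 members past the test in each of the 3 libraries labelled Mdr2 knockout (red, left) and the 3 labelled wild-type (blue, right), with mean and SD in black. In 11 panels every red point lies above every blue point, as for Sfrp1 at 4.38 to 5.97 CPM in libraries labelled Mdr2 knockout and 0.445 to 0.766 CPM in those labelled wild-type, while for Lgr4 the groups overlap.

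**Figure D2:**
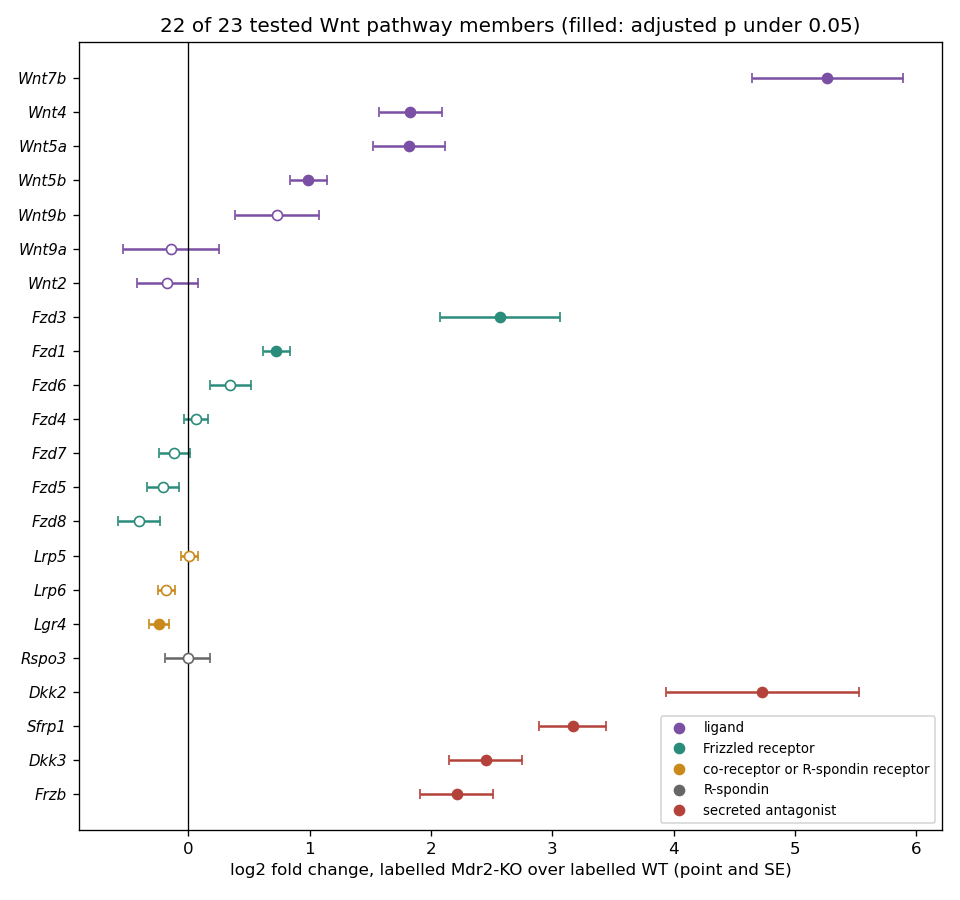
Log2 fold change (horizontal axis, labelled Mdr2 knockout over labelled wild-type) with its SE for the tested members, by role, without Wnt10a, which had no count in the libraries labelled wild-type. The 4 antagonists lie between 2.21 and 4.73, and the 3 co-receptor and R-spondin receptor genes between -0.24 and 0.01.

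Promoter windows of the members were examined whatever their call in the test. The 250 bases upstream of the annotated start were taken from RefSeq (GRCm38.p6, 5′ to 3′ on the gene's strand) for 24 of the 38 members, 5 of them among the 11 higher ones (Wnt4, Wnt5b, Fzd1, Frzb and Dkk2). They were searched on both strands for the TCF/LEF core CTTTGAN, through which beta-catenin acts, and for GACCACCCA (GLI), TGANTCA (AP-1) and GGAATG (TEAD). Of the 5 higher members with a window, only the 3 that held the TCF/LEF core are printed. Wnt4 and Dkk2 held no match to it. Capitals mark the match to the TCF/LEF core in the windows of Frzb (chr2:80447397-80447646, minus strand), Fzd1 (chr5:4758217-4758466, minus strand) and the most downstream of the 3 annotated Wnt5b starts (chr6:119449387-119449636, minus strand).
Frzb: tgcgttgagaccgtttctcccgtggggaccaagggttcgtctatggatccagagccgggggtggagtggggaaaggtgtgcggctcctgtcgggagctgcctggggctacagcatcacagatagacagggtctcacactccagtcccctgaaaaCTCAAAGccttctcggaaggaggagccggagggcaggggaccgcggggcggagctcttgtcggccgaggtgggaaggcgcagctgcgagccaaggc
Fzd1: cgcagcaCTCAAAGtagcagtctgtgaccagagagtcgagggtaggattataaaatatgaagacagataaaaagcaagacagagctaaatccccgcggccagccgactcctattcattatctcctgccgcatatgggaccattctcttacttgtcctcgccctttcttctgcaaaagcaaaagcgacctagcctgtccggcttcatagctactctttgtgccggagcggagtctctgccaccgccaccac
Wnt5b: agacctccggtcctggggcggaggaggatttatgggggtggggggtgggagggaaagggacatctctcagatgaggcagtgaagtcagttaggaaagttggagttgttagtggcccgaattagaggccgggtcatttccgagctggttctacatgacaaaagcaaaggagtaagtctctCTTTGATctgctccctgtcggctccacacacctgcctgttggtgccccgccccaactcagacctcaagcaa
The core was found in 4 of the 24 members (Frzb, Fzd1, Wnt5b and Wnt11), against 15.8% of all 27025 genes with such a window. The AP-1 letters were found in 1 member, at the most upstream Wnt5b start, and in 7.82% of all genes, and the TEAD letters in 1 member (Lgr4) and in 14.4% of genes. The GLI letters were in no member and in 0.255% of genes. A match is a run of letters and no evidence of binding, and the absence of a match speaks only of this window.

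Among the ligands, the steepest differences were in Wnt7b and Wnt10a, which act mainly through beta-catenin in epithelia and which the libraries labelled wild-type hardly held. Wnt7b (chromosome 15, 85535437 to 85581821, GRCm38.p6) had 36, 36 and 40 counts in the libraries labelled Mdr2 knockout, against 0, 0 and 2 in those labelled wild-type. The ratio of summed counts, scaled by library, was 44.6 with a 95% counting interval of 12.1 to 373 (edgeR adjusted p = 0.000185). Both wild-type counts of Wnt7b came from replicate 3, and without that library the fitted log2 fold change was 8.10, against 5.27 with it; a fit against a group at 0 depends on the prior count and is no bound. Wnt10a (chromosome 1, 74792019 to 74804176) had 17, 33 and 18 counts in the libraries labelled Mdr2 knockout and 0 in each labelled wild-type. Set against a group floor of 3 counts, with the counting error of the knockout counts left aside, it was at least 18.1-fold higher (edgeR adjusted p = 0.00109). With that error the 95% counting interval of the ratio began at 14.3. Both genes were thus read in every library labelled knockout and, but for 2 counts of Wnt7b, in none labelled wild-type. Counting intervals and floors cover counting error only. Exons of Wnt7b overlap the antisense transcript AU022754, and those of Wnt5a the antisense gene Gm2670, and with no strand setting given their reads cannot be told apart; the same holds for Fzd5, Fzd6, Rspo3, Sfrp2 and Wnt11, which also share exon positions with a gene on the other strand.

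Wnt7a, the close relative of Wnt7b, fell below the filter. It had 13, 8 and 5 counts in the libraries labelled Mdr2 knockout, against 0, 1 and 0 in those labelled wild-type, a ratio of 20.7 (95% counting interval 3.4 to 850). Without the filter it passed (edgeR adjusted p = 0.0101).

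The other 3 higher ligands, Wnt4, Wnt5a and Wnt5b, are known largely for signalling that does not need beta-catenin, and were read in all 6 libraries. Wnt4 (chromosome 4, 137277635 to 137299501) stood at 3.12, 2.97 and 3.90 CPM in the libraries labelled Mdr2 knockout, against 0.826, 0.830 and 1.14 CPM in those labelled wild-type (log2 fold change 1.83, SE 0.26, edgeR adjusted p = 0.000595). Wnt5a (chromosome 14, 28504543 to 28527448) stood at 4.46, 2.77 and 3.32 CPM in the libraries labelled Mdr2 knockout, against 1.21, 1.09 and 0.694 CPM in those labelled wild-type (log2 fold change 1.82, SE 0.30, edgeR adjusted p = 0.00122). For each gene the lowest library labelled knockout lay well above the highest labelled wild-type. Wnt5b (chromosome 6, 119432531 to 119544824) had the smallest difference and the tightest libraries, with 7.54, 7.10 and 6.65 CPM in the libraries labelled Mdr2 knockout, against 3.43, 3.64 and 3.66 CPM in those labelled wild-type (log2 fold change 0.99, SE 0.15, edgeR adjusted p = 0.000882).

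The ligands known from liver endothelium did not pass. Wnt2 stood at 2.23, 2.67 and 2.70 CPM in the libraries labelled Mdr2 knockout, against 1.97, 3.06 and 3.53 CPM in those labelled wild-type (log2 fold change -0.17, SE 0.25, edgeR adjusted p = 0.621). Wnt9b stood at 1.54, 1.51 and 2.23 CPM in the libraries labelled Mdr2 knockout, against 0.953, 0.702 and 1.51 CPM in those labelled wild-type (log2 fold change 0.73, SE 0.34, edgeR adjusted p = 0.120). Wild-type replicate 3 held the highest Wnt9b level of its group, and without it the gene passed (log2 fold change 1.07, edgeR adjusted p = 0.0487), as it did with total-count scaling (1.02, edgeR adjusted p = 0.0300). Wnt9a was at 0.645 to 1.35 CPM in the libraries labelled Mdr2 knockout, against 0.766 to 1.20 CPM in those labelled wild-type, and overlapped (log2 fold change -0.14, SE 0.40, edgeR adjusted p = 0.802). The R-spondin gene Rspo3 stood at 3.72, 3.72 and 3.74 CPM in the libraries labelled Mdr2 knockout, against 3.18, 4.21 and 3.85 CPM in those labelled wild-type (log2 fold change -0.01, SE 0.18, edgeR adjusted p = 0.981). For Wnt2 and Rspo3 the libraries labelled wild-type were spread around those labelled knockout. Markers of sinusoidal endothelium are 10 genes with Stab2, Clec4g and Lyve1 as defining markers. Of the 10 genes, 1 was higher (10%) and 5 were lower (50%), against 20.9% and 16.3% of all tested genes. The list's summed level was 342 to 370 CPM in the libraries labelled Mdr2 knockout, against 345 to 404 CPM in those labelled wild-type.

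Per length, in the FPKM deposited by the authors, the order of the ligands differed between the labelled groups. FPKM are scaled by total counts and not by TMM factors. In the libraries labelled Mdr2 knockout Wnt5b led at 2.23 to 2.54 FPKM, followed by Wnt2 at 1.10 to 1.32 and Wnt4 at 0.853 to 1.13, of which the last 2 overlapped. In those labelled wild-type Wnt2 and Wnt5b led with overlapping levels of 0.799 to 1.40 and 0.955 to 0.996 FPKM, and no other ligand exceeded 0.318 FPKM. The 15 ligands summed to 6.83, 7.03 and 7.16 FPKM in the libraries labelled Mdr2 knockout, against 2.54, 2.80 and 3.33 FPKM in those labelled wild-type. Wnt2 made up 16.0% to 18.4% of that sum in libraries labelled Mdr2 knockout and 31.5% to 42.9% in those labelled wild-type, while the share of Wnt5b overlapped, at 31.1% to 37.1% in libraries labelled Mdr2 knockout and 30.0% to 37.7% in those labelled wild-type. In each library labelled Mdr2 knockout 11 or 12 of the 15 ligands had at least 1 count, against 7 or 8 in each labelled wild-type. Of all genes, 15141 to 15152 had a count in the libraries labelled Mdr2 knockout, against 14277 to 14359 in those labelled wild-type.

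**Figure D3:**
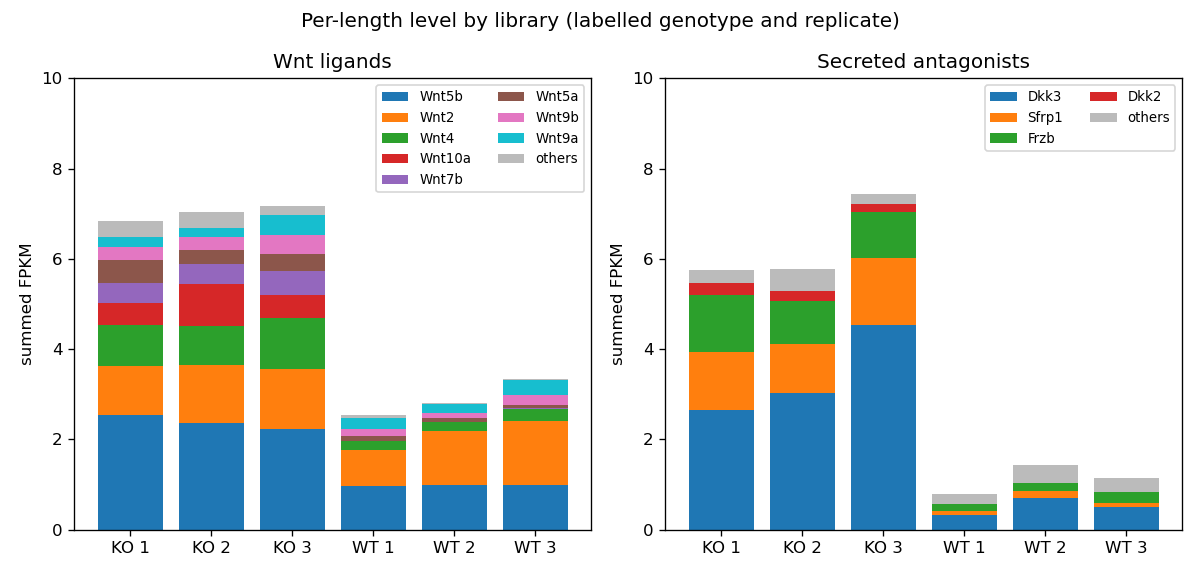
Summed FPKM (vertical axis) of the 15 ligands (left) and the 9 secreted antagonists (right) in each library, labelled Mdr2 knockout replicates 1 to 3 first, with the colours showing single genes. Ligands reach 6.83 to 7.16 FPKM in libraries labelled Mdr2 knockout and 2.54 to 3.33 FPKM in those labelled wild-type, and antagonists 5.76 to 7.44 and 0.781 to 1.44 FPKM.

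Of the 7 tested Frizzled receptor genes, 2 were higher (28.6%, against 20.9% of all tested genes) and 5 did not pass. Of these 2, Fzd3 entered the test through the libraries labelled knockout. Fzd1 (chromosome 5, 4753839 to 4758216) stood at 13.9, 13.0 and 14.6 CPM in the libraries labelled Mdr2 knockout, against 8.07, 8.94 and 8.14 CPM in those labelled wild-type (log2 fold change 0.72, SE 0.11, edgeR adjusted p = 0.000856). Fzd3 (chromosome 14, 65192441 to 65262463), known for axon guidance and planar cell polarity, had 17, 14 and 23 counts in the libraries labelled Mdr2 knockout, against 3, 2 and 2 in those labelled wild-type (log2 fold change 2.57, SE 0.50, edgeR adjusted p = 0.00293). Fzd3 was low, at 0.0607 to 0.104 FPKM in the libraries labelled Mdr2 knockout and 0.00891 to 0.0138 FPKM in those labelled wild-type, whereas Fzd1 was at 3.27 to 3.70 FPKM in the libraries labelled Mdr2 knockout and 1.67 to 1.82 FPKM in those labelled wild-type. Fzd2 was left out by the filter with 6, 11 and 14 counts in the libraries labelled Mdr2 knockout, against 3, 2 and 0 in those labelled wild-type, a ratio of 4.94 (95% counting interval 1.91 to 16.3).

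The other 5 tested Frizzled genes did not pass. Fzd4, which is also the endothelial receptor for Norrin, was the highest Frizzled gene per length in both labelled groups, at 5.80 to 7.05 FPKM in the libraries labelled Mdr2 knockout and 4.51 to 5.58 FPKM in those labelled wild-type, and did not overlap with the next, Fzd7, in either. Its log2 fold change was 0.07 (SE 0.10, edgeR adjusted p = 0.631). Fzd5, Fzd6, Fzd7 and Fzd8 had log2 fold changes of -0.21, 0.35, -0.12 and -0.41 (SE 0.13, 0.17, 0.13 and 0.17). With total-count scaling Fzd4 and Fzd6 passed as higher, and without Mdr2 knockout replicate 1, the highest of its group for Fzd8, Fzd8 passed as lower (log2 fold change -0.61, edgeR adjusted p = 0.0186). Per length, Fzd8 at 2.57 to 4.02 FPKM overlapped with Fzd1 in the libraries labelled Mdr2 knockout, while in those labelled wild-type Fzd8, at 3.11 to 3.96 FPKM, lay above Fzd1. Fzd9 had 0 to 2 counts in the libraries labelled Mdr2 knockout, against 1 to 5 in those labelled wild-type.

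The co-receptor genes and Lgr4 were the most abundant members per length, and their differences were small and depended on scaling. Lrp5 stood at 140, 133 and 136 CPM in the libraries labelled Mdr2 knockout, against 138, 140 and 127 CPM in those labelled wild-type (log2 fold change 0.01, SE 0.07, edgeR adjusted p = 0.931). Lrp6 stood at 105, 108 and 117 CPM in the libraries labelled Mdr2 knockout, against 121, 127 and 126 CPM in those labelled wild-type. In TMM-scaled CPM every library labelled knockout lay below every library labelled wild-type for Lrp6, but the difference did not pass (log2 fold change -0.18, SE 0.07, edgeR adjusted p = 0.0655). In FPKM, which are scaled by total counts, the separation turned round, with 12.7 to 14.1 FPKM in the libraries labelled Mdr2 knockout and 12.1 to 12.4 FPKM in those labelled wild-type. With total-count scaling Lrp5 passed as higher (log2 fold change 0.30, edgeR adjusted p = 0.00696), and Lrp6 did not pass (0.11, edgeR adjusted p = 0.218). Lgr4 (chromosome 2, 109917647 to 110014257), the R-spondin receptor of hepatocytes, stood at 58.3, 62.8 and 56.6 CPM in the libraries labelled Mdr2 knockout, against 62.0, 72.9 and 74.9 CPM in those labelled wild-type, with overlap between the groups. It was the single lower member (log2 fold change -0.24, SE 0.08, edgeR adjusted p = 0.0470). The call was lost with DESeq2 (adjusted p = 0.0662), limma-voom (adjusted p = 0.0599) and upper-quartile scaling (edgeR adjusted p = 0.121), and its sign turned with total-count scaling (log2 fold change 0.05). It was also lost without any 1 of the 3 libraries labelled Mdr2 knockout (edgeR adjusted p = 0.111, 0.0503 and 0.127) and without wild-type replicate 2 or 3 (edgeR adjusted p = 0.132 and 0.114). Relative to TMM, total-count scaling shifted the median over tested genes by 0.29 (log2), so small differences such as those of Lrp5, Lrp6 and Lgr4 hold only relative to the TMM reference. Per length Lrp6 and Lgr4 overlapped in both labelled groups, at 12.7 to 14.1 and 12.2 to 13.4 FPKM in the libraries labelled Mdr2 knockout and 12.1 to 12.4 and 11.1 to 13.1 FPKM in those labelled wild-type.

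Each of the 4 tested antagonist genes passed as higher under the Mdr2 knockout label, against 20.9% of all tested genes. Sfrp1, Frzb and Dkk2 entered the test through the libraries labelled knockout, so this share is a description only. Sfrp1 (chromosome 8, 23411383 to 23449632), a soluble Frizzled-like protein that binds Wnt ligands, stood at 5.21, 4.38 and 5.97 CPM in the libraries labelled Mdr2 knockout, against 0.445, 0.766 and 0.505 CPM in those labelled wild-type (log2 fold change 3.17, SE 0.28, edgeR adjusted p = 2.96e-05). Frzb (chromosome 2, 80411970 to 80447396), also called Sfrp3, stood at 3.32, 2.57 and 2.70 CPM in the libraries labelled Mdr2 knockout, against 0.445, 0.638 and 0.757 CPM in those labelled wild-type (log2 fold change 2.21, SE 0.30, edgeR adjusted p = 0.000423). In both genes the groups lay far apart relative to their spread. Dkk2 (chromosome 3, 132085266 to 132180304), a ligand of Lrp6 that blocks or activates the pathway depending on context, had 18, 15 and 11 counts in the libraries labelled Mdr2 knockout, against 1, 0 and 0 in those labelled wild-type, a ratio of 35.1 (95% counting interval 5.97 to 1420; edgeR adjusted p = 0.00142). Without wild-type replicate 1, which held the only wild-type count of Dkk2, the fitted log2 fold change was 6.76, against 4.73 with it, and is likewise no bound.

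Dkk3 (chromosome 7, 112116019 to 112159482) was the most abundant of this class, and is the divergent Dickkopf relative that is not an established antagonist of Lrp5 or Lrp6. It stood at 8.53, 9.92 and 14.7 CPM in the libraries labelled Mdr2 knockout, against 1.27, 2.81 and 1.96 CPM in those labelled wild-type (log2 fold change 2.45, SE 0.30, edgeR adjusted p = 0.000498). Mdr2 knockout replicate 3 was the highest and wild-type replicate 1 the lowest library for Dkk3. The 9 antagonists summed to 5.76, 5.76 and 7.44 FPKM in the libraries labelled Mdr2 knockout, against 0.781, 1.44 and 1.14 FPKM in those labelled wild-type, and Dkk3 alone accounted for 2.64 to 4.54 and 0.326 to 0.696 FPKM of these sums.

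The remaining antagonists were too low to test. Sfrp4 had 3, 5 and 3 counts in the libraries labelled Mdr2 knockout and 0 in each labelled wild-type, which is at least 2.92-fold higher when the group floor is 3 counts and the counting error of the knockout counts is left aside. With that error the 95% counting interval of the ratio began at 2.0. Sfrp5 ran the other way, with 0 counts in each library labelled Mdr2 knockout, against 4, 1 and 1 in those labelled wild-type. The 95% counting interval of its ratio reached up to 0.677, and 4 of its 6 counts came from wild-type replicate 1. Wif1 had 5, 2 and 0 counts in the libraries labelled Mdr2 knockout, against 0, 3 and 8 in those labelled wild-type, while Dkk4 had 2, 6 and 3 counts in the libraries labelled Mdr2 knockout, against 2, 7 and 0 in those labelled wild-type, so both genes overlapped. Sfrp2 had 1 count in the libraries labelled Mdr2 knockout and 3 in those labelled wild-type.

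In all, 15 members were left out by the filter, none with more than 14 counts in a library, and 14 of them had any count. In 4 of these (Fzd2, Wnt7a, Wnt11 and Sfrp4) the libraries labelled Mdr2 knockout lay above all labelled wild-type, and in 1 (Sfrp5) below, while 9 overlapped. Over all 3665 genes with counts that the filter left out, 19.0% lay above and 1.77% below in this way. Wnt11 had 2, 6 and 3 counts in the libraries labelled Mdr2 knockout, against 1, 0 and 0 in those labelled wild-type, a ratio of 8.77 (95% counting interval 1.27 to 377). Rspo1 had 6, 5 and 0 counts in the libraries labelled Mdr2 knockout, against 3, 0 and 3 in those labelled wild-type. Wnt2b, Wnt6, Wnt10b and Wnt16 had 1, 1, 2 and 4 counts in total in the libraries labelled Mdr2 knockout, against 3, 0, 0 and 0 in those labelled wild-type, and Wnt8b had 0 throughout. Without the filter, Wnt7a, Fzd2 (edgeR adjusted p = 0.0437) and Sfrp4 (edgeR adjusted p = 0.0408) joined the higher members, and Wnt11 (edgeR adjusted p = 0.116) and Sfrp5 (edgeR adjusted p = 0.0825) did not pass. In Wnt2b, Wnt6, Wnt8b, Wnt10b, Wnt16 and Sfrp2, at 0 to 3 counts a library, differences were not detectable at this depth. A count of 3 equals 0.149 to 0.192 CPM.

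**Figure D4:**
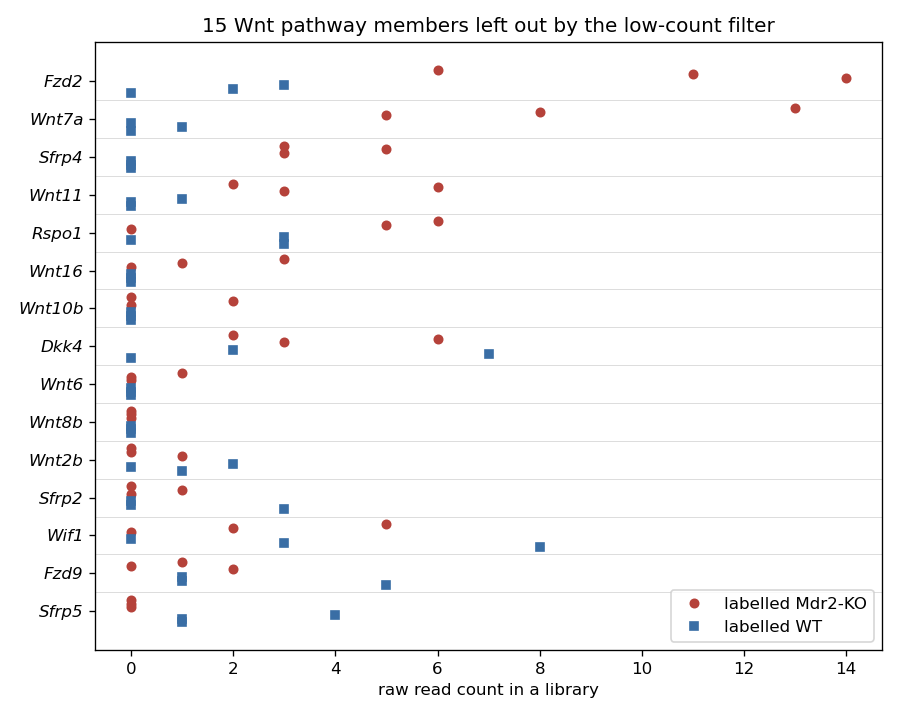
Raw counts (horizontal axis) of the 15 members left out by the low-count filter, with 1 point per library, labelled Mdr2 knockout in red circles above labelled wild-type in blue squares. Fzd2 (6 to 14 counts in libraries labelled Mdr2 knockout, 0 to 3 in those labelled wild-type) and Wnt7a (5 to 13 and 0 to 1) stand apart, and Sfrp5 is at 0 in each library labelled Mdr2 knockout.

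Markers of some cell types moved between the labelled groups in these bulk samples, in which more cells of a type and more RNA per cell cannot be told apart. Of all tested genes 20.9% were higher and 16.3% lower. The smooth muscle, venous endothelial, Kupffer cell, and T and NK cell lists exceeded neither share. Some markers entered the test through the libraries labelled knockout. Among them were Krt7 (4 to 9 counts in the libraries labelled wild-type) and Msln of mesothelium (3 to 4). The shares of higher markers are thus a description only. Of 11 tested cholangiocyte markers all were higher (defining markers Krt19, Krt7 and Epcam). The list's 12 genes summed to 503 to 533 CPM in the libraries labelled Mdr2 knockout, against 92.7 to 127 CPM in those labelled wild-type. Spp1 and Cdh1, picked after their values were seen, held 272 to 310 and 118 to 140 CPM of it under the knockout label. Under the wild-type label these genes held 28.5 to 45.6 and 34.7 to 48.1 CPM. Of 11 tested markers of activated fibroblasts (defining markers Col1a1, Col1a2 and Col3a1) all were higher, with sums of 267 to 352 CPM under the knockout label against 49.8 to 80.2 CPM under the wild-type label, and of 9 monocyte and macrophage markers 8 were higher, with sums of 384 to 387 CPM under the knockout label against 114 to 201 CPM under the wild-type label. Hepatocyte markers were lower for 8 of 10, with sums of 87810 to 91020 CPM under the knockout label against 134200 to 144500 CPM under the wild-type label. Stellate cell markers were higher for 4 of 10, with sums of 356 to 421 CPM under the knockout label against 245 to 385 CPM under the wild-type label that overlapped, and smooth muscle markers for 0 of 4. Venous endothelial markers were higher for 1 of 7 (80.8 to 97.4 CPM under the knockout label against 66.5 to 83.9 CPM under the wild-type label) and Kupffer cell markers for 1 of 5 (241 to 335 CPM under the knockout label against 171 to 311 CPM under the wild-type label). Neutrophil markers were higher for 3 of 4, mesothelial markers for 2 of 2, B and plasma cell markers for 1 of 2 and T and NK cell markers for 0 of 2, all at sums of no more than 15.3 CPM, and none of these lists had a lower member. Of the 3 defining markers of each list, Cnn1 of smooth muscle and Lrrn4 of mesothelium had no count in 1 library each, both labelled wild-type, and no other was at 0 in any library. The part of these shifts in the differences of the Wnt ligands, receptors and antagonists was not tested.

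The pathway's other genes, from ligand secretion and further surface receptors to the steps inside the cell, were called in both directions. Of 74 listed machinery genes with counts deposited, 65 were tested; 14 were higher and 11 lower, or 21.5% and 16.9%, close to the 20.9% and 16.3% of all tested genes, and the median log2 fold change was 0.03 against 0.01 for all tested genes. Wls, which carries Wnt ligands to the cell surface, stood at 10.4, 11.1 and 12.7 CPM in the libraries labelled Mdr2 knockout, against 4.26 to 6.0 CPM in those labelled wild-type (log2 fold change 1.15, SE 0.16, edgeR adjusted p = 0.000421). Ptk7, a co-receptor of planar polarity signalling, had a log2 fold change of 1.99 (SE 0.32), and Nfatc2, a calcium-regulated transcription factor used well beyond Wnt signalling, of 2.42 (SE 0.33). Camk2a and Nkd2, a feedback inhibitor of Dishevelled, had 47 and 61 counts in the libraries labelled Mdr2 knockout, against 1 and 2 in those labelled wild-type, with ratios of 37.5 (95% counting interval 6.4 to 1510) and 24.3 (6.45 to 205). Ptk7, Camk2a and Nkd2 entered the test through the libraries labelled knockout, so the shares of this list are a description only. The genes that were lower included the glypican Gpc4 (log2 fold change -0.51, SE 0.08) and the polarity cadherin Celsr1 (-0.69, SE 0.11). Notum, the enzyme that removes the lipid of Wnt ligands, stood at 28.3, 29.3 and 30.8 CPM in the libraries labelled Mdr2 knockout, against 55.2, 43.0 and 45.1 CPM in those labelled wild-type (log2 fold change -0.70, SE 0.10, edgeR adjusted p = 0.000498). With total-count scaling 27 machinery genes were higher and 4 lower, and without Mdr2 knockout replicate 3 or without wild-type replicate 1 the higher count was 9.

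Genes known as targets of Wnt signalling were likewise split. Of 23 listed, 22 were tested. Of these, 4 passed as higher and 3 as lower, against 15 that did not, with a median log2 fold change of 0.01. That is 18.2% and 13.6%, against 20.9% and 16.3% of all tested genes, so the list did not exceed the background. Axin2, Lef1, Lgr5, Nkd1, Notum, Rnf43, Tcf7 and Znrf3 belong to both this list and the machinery list. The 4 higher genes were Mmp7, Ccnd1, Cd44 and Myc, which respond to many other signals too. Mmp7, the matrilysin gene, stood at 11.2, 14.0 and 17.5 CPM in the libraries labelled Mdr2 knockout, against 0.127, 0.447 and 0 CPM in those labelled wild-type (log2 fold change 6.17, SE 0.46, edgeR adjusted p = 5.75e-05). Mmp7 entered the test through the libraries labelled knockout. Ccnd1, which encodes cyclin D1, stood at 24.5, 24.4 and 26.8 CPM in the libraries labelled Mdr2 knockout, against 4.64, 4.53 and 6.31 CPM in those labelled wild-type (log2 fold change 2.29, SE 0.13). Cd44 and Myc had log2 fold changes of 1.51 (SE 0.26) and 0.90 (SE 0.26).

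The 3 lower genes were Notum, the pericentral cytochrome gene Cyp2e1 (log2 fold change -1.55, SE 0.13) and Rgn, whose groups overlapped (-0.43, SE 0.15, edgeR adjusted p = 0.0492). Of the feedback genes on this list, Notum thus passed as lower. Axin2, Lgr5, Nkd1, Rnf43 and Znrf3, and the pericentral gene Glul, did not pass, and these 6 were picked out after their values were seen. The feedback gene Nkd2, on the machinery list only, was higher (log2 fold change 4.39, SE 0.705, edgeR adjusted p = 0.0011). Nkd2 entered the test through the libraries labelled knockout. Axin2 stood at 7.45 to 10.96 CPM in the libraries labelled Mdr2 knockout, against 7.21 to 10.55 CPM in those labelled wild-type (log2 fold change 0.06, SE 0.19, edgeR adjusted p = 0.835). Lgr5 stood at 4.76, 5.34 and 5.51 CPM in the libraries labelled Mdr2 knockout, against 7.43, 6.96 and 5.61 CPM in those labelled wild-type, without overlap (log2 fold change -0.36, SE 0.16, edgeR adjusted p = 0.105). Nkd1, Rnf43 and Znrf3 had log2 fold changes of 0.17, 0.04 and -0.42 (SE 0.22, 0.20 and 0.15), and Glul, the glutamine synthetase gene, of 0.01 (SE 0.08). The 23 listed genes summed to 5635 to 7106 CPM under the knockout label, against 12660 to 14000 CPM under the wild-type label. Counts for this list depended on scaling and tool, with 7 higher and 2 lower under total counts and 4 higher and 5 lower with DESeq2.

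**Figure D5:**
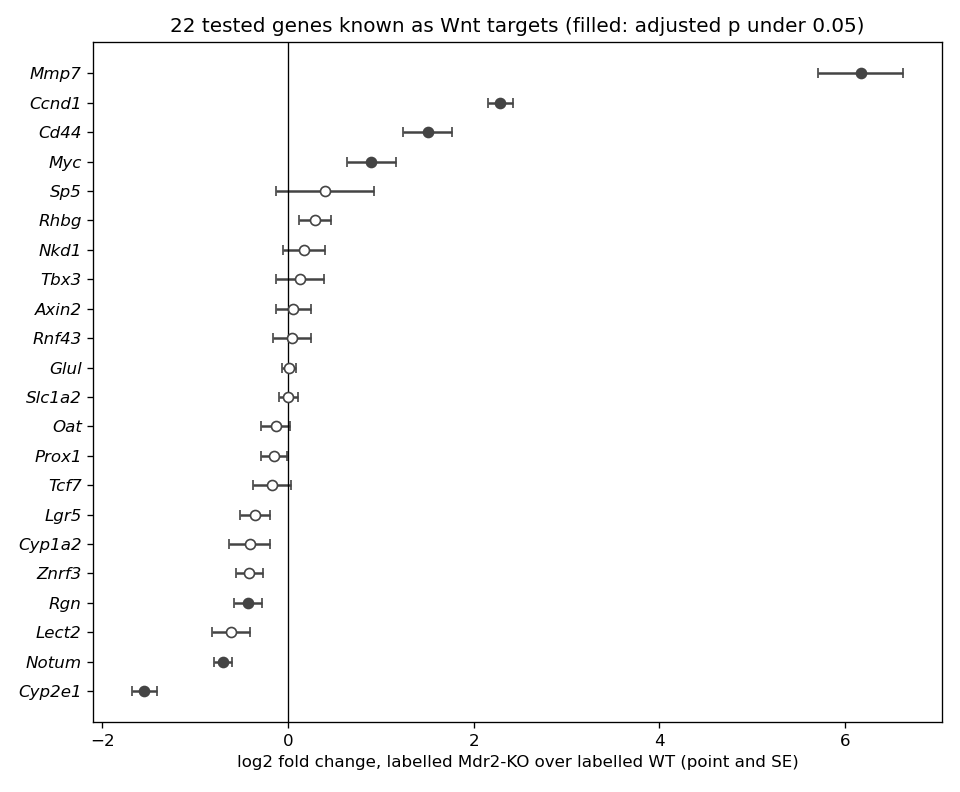
Log2 fold change (horizontal axis, labelled Mdr2 knockout over labelled wild-type) with its SE for the 22 tested genes known as Wnt targets, filled where the edgeR adjusted p was under 0.05. Mmp7 at 6.17 and Ccnd1 at 2.29 stand at the top and Cyp2e1 at -1.55 at the bottom, with Axin2 and Glul at 0.06 and 0.01 near the centre.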

How the data were processed

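The authors deposited whole-number read counts per gene symbol and a table of FPKM for the same genes. Per the submitters' processing notes, the tools named are SAMtools, StringTie, Bowtie2, HISAT2, Trimmomatic, HTSeq, DESeq and Cufflinks, with build mm10. Roles, versions, annotation and strandedness of counting: not given in the sources used here. Values in FPKM, as deposited, are the counts scaled by gene length and library total, as checked on 10790 genes, and are no second measurement. No column was left without a sample (0).

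The test was edgeR 4.0.16 under R 4.3.3 (filterByExpr with minimum count 10 and minimum total 15, TMM, robust quasi-likelihood fit, group as the only term, 3 libraries against 3), with Benjamini-Hochberg adjustment over all 12612 tested genes and a threshold of 0.05. A log2 fold change is labelled Mdr2 knockout over labelled wild-type, its SE derived from the F statistic, and CPM use TMM-scaled library sizes. The code was tested on simulated counts. No library repeated another of its group: chi-square per degree of freedom was at least 16.9. Of the 38 members' exons, those of 7 overlap another gene in GENCODE M21. Alternatives were DESeq2 1.42.0, voom in limma 3.58.1, scaling by RLE, upper quartile or total counts, no filter, a filter at 1 CPM in 3 libraries, a replicate block and leaving out each library. All members that matched the symbol rule are named; of the machinery and target lists, at most the 8 genes with the smallest p among those past the threshold; of the marker lists, only the 3 defining markers, which are the first 3 listed. Others are said to be picked afterwards. The members and lists were chosen with earlier results of these data known.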

Additional observations from a re-analysis of the deposited data

How the results depend on the processing

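The 11 higher members kept that call in each of the 151 values given by the alternatives (largest adjusted p 0.0169); the filter at 1 CPM tested only 8 of them. The count of higher members was 15 with total-count scaling, 14 without the filter, 8 with the filter at 1 CPM, 11 with each of the other alternatives on all libraries, and 11 to 12 with 1 library left out. The count of lower members, 1 at first, was 0 with upper-quartile factors, total-count scaling, DESeq2, limma-voom and the filter at 1 CPM. With 1 library left out it was 0 to 1. The lower member was then Fzd8 without Mdr2 knockout replicate 1, Lrp6 without Mdr2 knockout replicate 3 (-0.23) and Lgr4 without wild-type replicate 1 (-0.33). With total counts, 5930 genes of the table were higher and 330 lower, machinery genes were 27 and 4 and target genes 7 and 2. With DESeq2 5 target genes were lower. With 1 library left out, 9 to 13 machinery genes were higher and 8 to 11 lower, and 3 to 4 target genes were higher and 2 to 4 lower. The choice of scaling thus limits what can be said of small differences, and depth limits the 15 members below the filter.

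Among members 21 values turned sign, all of genes that had not passed, apart from that of Lgr4. With total-count scaling the log2 fold change was 0.081 for Fzd5, 0.18 for Fzd7, 0.054 for Lgr4, 0.11 for Lrp6, 0.29 for Rspo3, 0.12 for Wnt2 and 0.15 for Wnt9a. Lrp5 was at -0.001 with RLE factors and with DESeq2 and -0.005 without the filter, and Rspo3 at 0.049 with upper-quartile factors, 0.000 with limma-voom and 0.004 with the filter at 1 CPM. With 1 library left out, Lrp5 ranged over -0.043 to 0.026 (below 0 without Mdr2 knockout replicate 1 or wild-type replicate 3), Rspo3 over -0.123 to 0.076 (above 0 without wild-type replicate 2 or 3), Wnt9a over -0.58 to 0.036 (above 0 without Mdr2 knockout replicate 1 or 2 or wild-type replicate 3) and Fzd4 from -0.013 (without Mdr2 knockout replicate 1) to 0.152. The cause of these turns was not tested.

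Equal replicate numbers did not pair the libraries: deviations from the group means correlated at 0.114, 0.063 and -0.078 for numbers 1, 2 and 3, and wild-type replicate 3 correlated best with knockout replicate 2. With the replicate number as a block 11 members were higher and 1 lower, and 2576 and 1992 genes of the table.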
